A study of Mus musculus with 12 samples.

Results

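The 40 genes described here drive the division cycle and copy the DNA. They were taken from a list of cyclins, cyclin-dependent kinases, inhibitors, replication licensing factors, E2F factors and mitotic genes, and all 40 were found by symbol among the 54232 gene IDs of the count tables. They comprised 8 cyclins, 4 kinases, 4 inhibitors and pocket proteins, 5 E2F and Myc factors, 11 licensing and replication genes and 8 genes of mitosis and proliferation. All 40 passed the filter on low counts that left 17721 genes for testing.

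Bulk RNA was sequenced from whole eye organoids at day 7, derived from mouse ESCs with a GFP knock-in at 1 allele of the eye gene Rax (Rax-GFP). The LDHi+lactate group received 20 µM GNE-140, which blocks lactate dehydrogenase, for 3 days together with 25 mM lactate, which the labels give as a pretreatment of 12 h. The LDHi group received GNE-140 at the same dose and time without lactate, and the control group received neither. Each group held 4 libraries, numbered 1 to 4 in the labels, and all 12 shared the Rax-GFP genotype. Replicates 1 and 2 (the first set) are labelled eye organoid and replicates 3 and 4 (the second set) retina progenitors as cell type. The organoids were not sorted, so a gene's level is a mean over all their cells, and fewer cycling cells and less RNA per cycling cell cannot be told apart.

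Division is ordered by kinases that are inactive without a cyclin. D cyclins with Cdk4 and Cdk6 act in G1 and phosphorylate the Rb pocket proteins, which releases E2F factors to switch on genes for DNA synthesis. Cyclin E and then cyclin A activate Cdk2 for S phase, while cyclins A and B activate Cdk1 for mitosis. The Mcm2-7 helicase is loaded onto origins in G1 by Cdc6 and Cdt1, a step known as licensing, and geminin blocks Cdt1 afterwards. Retinal progenitors divide as the optic vesicle grows, and they leave the cycle as neurons form.

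Total counts were 22174002 to 48271386 per library, with 37284585 to 48271386 in the first set and 22174002 to 29919036 in the second. Levels are given as CPM, a gene's counts scaled to a common library size, with TMM scaling, and differences as log2 fold changes with their standard errors from edgeR. Calls were made where the Benjamini-Hochberg adjusted p over the 17721 genes was under 0.05. Same-numbered libraries deviated together, so each comparison is given without and with the replicate number as a block in the fit, and p-values measure only the spread between these libraries. The optic vesicle markers, 7 genes, summed to 603 to 881 CPM in LDHi+lactate, 418 to 502 CPM in LDHi and 614 to 1244 CPM in control. The neuron markers, 8 genes, summed to 143 to 573 CPM in LDHi+lactate, 219 to 862 CPM in LDHi and 149 to 900.0 CPM in control, with control replicate 4 and LDHi replicate 1 the highest. The pluripotent cell markers, 7 genes, summed to 387 to 811 CPM in LDHi+lactate, 464 to 833 CPM in LDHi and 188 to 377 CPM in control, and no LDHi or LDHi+lactate library fell below the highest control one. With the block in LDHi against control, 7 of 7 optic vesicle markers were lower and 6 of 7 pluripotent cell markers higher. Without it, 4 of each were called. With the block 3 of 7 mesoderm and endoderm and 1 of 3 telencephalon markers were higher. None of the 8 neuron and 4 neural crest markers was called. Over all genes tested, 9.85% were called higher and 10.1% lower with the block, and 3.09% were called without it. Mixl1, a mesoderm and endoderm marker, was at 0 in 1 control library. The part of these cell types in the results below was not tested.

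Sequence upstream of the start is shown for 4 of the genes whose levels are compared below, because E2F factors and late cell cycle complexes are known to act there. RefSeq windows of 250 bases before the start were held for 31 of the 40 genes. The E2F letters searched on both strands were TTTCCCGC, TTTCGCGC, TTTGCCGC and TTTGGCGC, and the letters of the cell cycle homology region (CHR), bound by the DREAM and MuvB complexes, were TTTGAA. E2F letters stood in 10 of the 31 windows and in 2.16% of those of 27025 genes. The 10 genes were Cdk1, Cdk2, Rbl1, E2f3, Mycn, Mcm5, Mcm6, Mcm7, Cdc6 and Cdc25a. CHR letters stood in 9 of 31 windows and in 18.3% of all genes' windows, and CCAAT in 21 of 31 and in 37.5%. The E-box letters CACGTG, a palindrome counted once and bound by Myc family factors, stood in 3 of 31 windows (Cdk4, Cdk6 and E2f3) and in 6.86% of all. A match is a description of the letters and not a binding site. The sequences run 5′ to 3′ on the gene's strand in build GRCm38.p6, without bases that GENCODE vM21 places in an exon, and capitals mark E2F letters in Mcm5, Cdc25a and Mycn and CHR letters in Cdc20. They lie at chr8:75109259-75109508 (plus strand, Mcm5), chr9:109875329-109875578 (plus strand, Cdc25a), chr12:12941915-12942086 (minus strand, Mycn) and chr4:118437353-118437593 (minus strand, Cdc20).
Mcm5: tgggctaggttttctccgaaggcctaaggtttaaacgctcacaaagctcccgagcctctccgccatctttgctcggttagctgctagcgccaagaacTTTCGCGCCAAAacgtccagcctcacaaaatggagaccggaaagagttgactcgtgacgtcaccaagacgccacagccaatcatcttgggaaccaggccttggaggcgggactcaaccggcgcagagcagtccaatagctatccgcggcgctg
Cdc25a: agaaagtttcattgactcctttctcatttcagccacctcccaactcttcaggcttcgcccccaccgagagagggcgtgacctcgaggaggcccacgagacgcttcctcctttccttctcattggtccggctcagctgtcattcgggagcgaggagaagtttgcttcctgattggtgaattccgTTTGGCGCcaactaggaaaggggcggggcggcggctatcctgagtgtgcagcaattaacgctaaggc
Mycn: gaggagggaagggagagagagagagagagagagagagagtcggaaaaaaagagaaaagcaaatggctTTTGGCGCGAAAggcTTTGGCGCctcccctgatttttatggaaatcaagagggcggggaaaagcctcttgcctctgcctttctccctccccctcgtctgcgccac
Cdc20: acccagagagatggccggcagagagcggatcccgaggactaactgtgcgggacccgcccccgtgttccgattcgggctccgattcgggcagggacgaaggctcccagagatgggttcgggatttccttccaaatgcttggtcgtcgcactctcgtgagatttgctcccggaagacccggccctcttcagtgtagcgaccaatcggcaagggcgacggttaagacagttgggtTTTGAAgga
In Mcm5 the capitals hold 2 overlapping E2F matches on opposite strands, the first starting 153 bases before the start. Mycn holds 3 matches, the first 183 bases before the start, and Cdc25a holds 1 at 67 bases. The CHR letters of Cdc20 begin 18 bases before the start. These distances run to the RefSeq start. The last 78 bases of the Mycn window and the last 9 of the Cdc20 window lie in annotated exons and are not printed. A CHR match of Mycn, 14 bases before the start, falls in the part left out.

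The organoids expressed the whole set, over a wide range of levels. Per kb of exon, the median level over the 12 libraries ran from 4.27 CPM per kb for Cdk6 to 279 CPM per kb for Cdk4, and 38 of the 40 genes stood above the 60th percentile of genes tested. Cdk4 was at the 99.66th percentile. The next were Cdc20, which activates the anaphase-promoting complex, at 144 CPM per kb, Mcm5 at 129 and Mcm3 at 128 CPM per kb. The 6 Mcm helicase subunits lay within 72.2 to 129 CPM per kb. Among the cyclins the order per kb was Ccnb2 (76.8), Ccna2 (73.3), Ccnd2 (67.6), Ccnd1 (45.6), Ccne1 (31.3), Ccnd3 (19.5), Ccnb1 (17.3) and Ccne2 (7.16 CPM per kb), and the ranges of the libraries of Ccnb2, Ccna2 and Ccnd2 overlapped. The lowest genes were Cdk6, the Cdk4 and Cdk6 inhibitor Cdkn2c at 4.34, the pocket protein gene Rb1 at 6.93 and Ccne2. Union exon length counts the longest annotated ends, so the order holds for this measure of length. Within single genes, the highest library exceeded the lowest by 1.25-fold in E2f3 and Ccnb2 and by 4.51-fold in Myc, with Cdkn2c next at 3.95-fold and Rb1 at 2.96-fold.

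**Figure D1:**
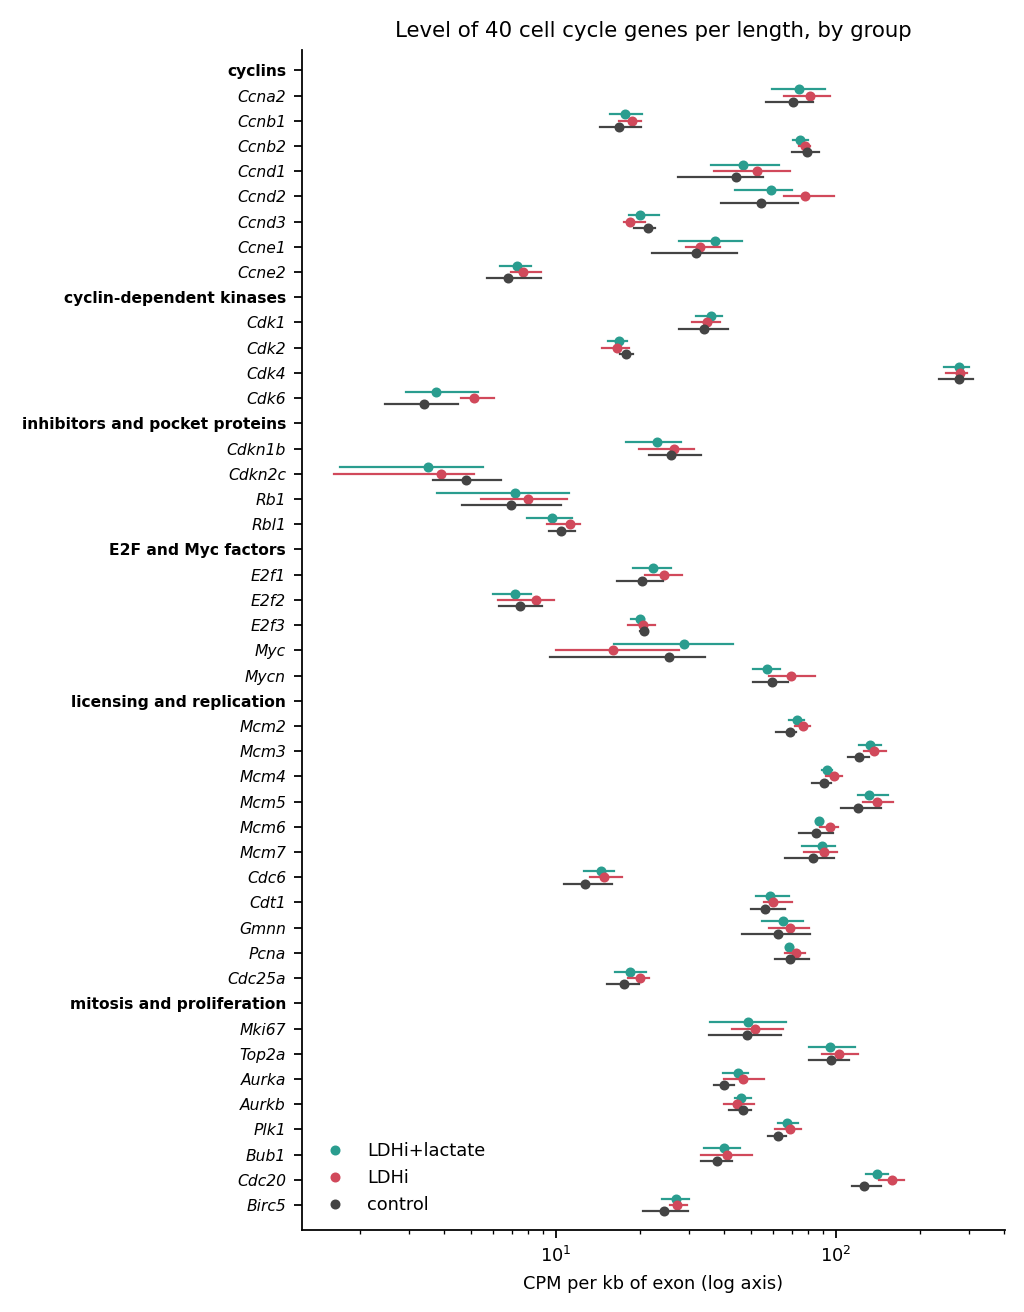
Level of the 40 genes in CPM per kb of exon on a log axis, with the mean (point) and the lowest to highest of 4 libraries (line) for LDHi+lactate, LDHi and control. The points of Cdk4 stand at 275, 277 and 275 CPM per kb in LDHi+lactate, LDHi and control and those of Cdk6 at 3.74, 5.13 and 3.39, while the LDHi and control lines overlap in every gene but Cdk6.

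The first comparison asks what loss of lactate dehydrogenase activity did to these genes. Without the block, none of the 40 was called in LDHi against control by edgeR, while 3.09% of all genes tested were. An unadjusted p under 0.05 was seen in 4 of the 40 (Ccnd2, Ccnd3, Cdk6 and Cdc20), a description given without the share over all genes tested. DESeq2 without the block called none either. With the replicate block, 12 genes were higher (30.0% of 40, against 9.85% of all genes tested called higher) and 2 were lower (5.0%, against 10.1% called lower). The median log2 fold change of the 40 was 0.15 with the block, against 0.01 over all genes tested, and 33 of the 40 were above 0. With the block and without replicate 1, 2, 3 or 4, the higher genes numbered 3, 12, 5 and 5, and the lower ones 0, 0, 1 and 2. These counts are given without the shares of all genes tested in the same fits, so they are a description. Cdc20 was called in all 4 of these fits, E2f1 and Mcm5 in 3, and Ccnd2, Ccnd3, Cdk6 and Aurka in 2. Ccna2, Myc, Mcm3, Cdc6 and Cdc25a were called in 1, and Mycn and Mcm2 in none. In the direction of the 4 same-numbered pairs, 17 genes were higher in LDHi in all 4 (42.5%, against 18.5% of all genes tested) and Cdk2 and Ccnd3 were lower in all 4 (5.0%, against 17.9%). Cdk6 was the one gene whose LDHi libraries all lay above the control ones, against 9.67% of all genes tested that did not overlap in either direction.

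**Figure D2:**
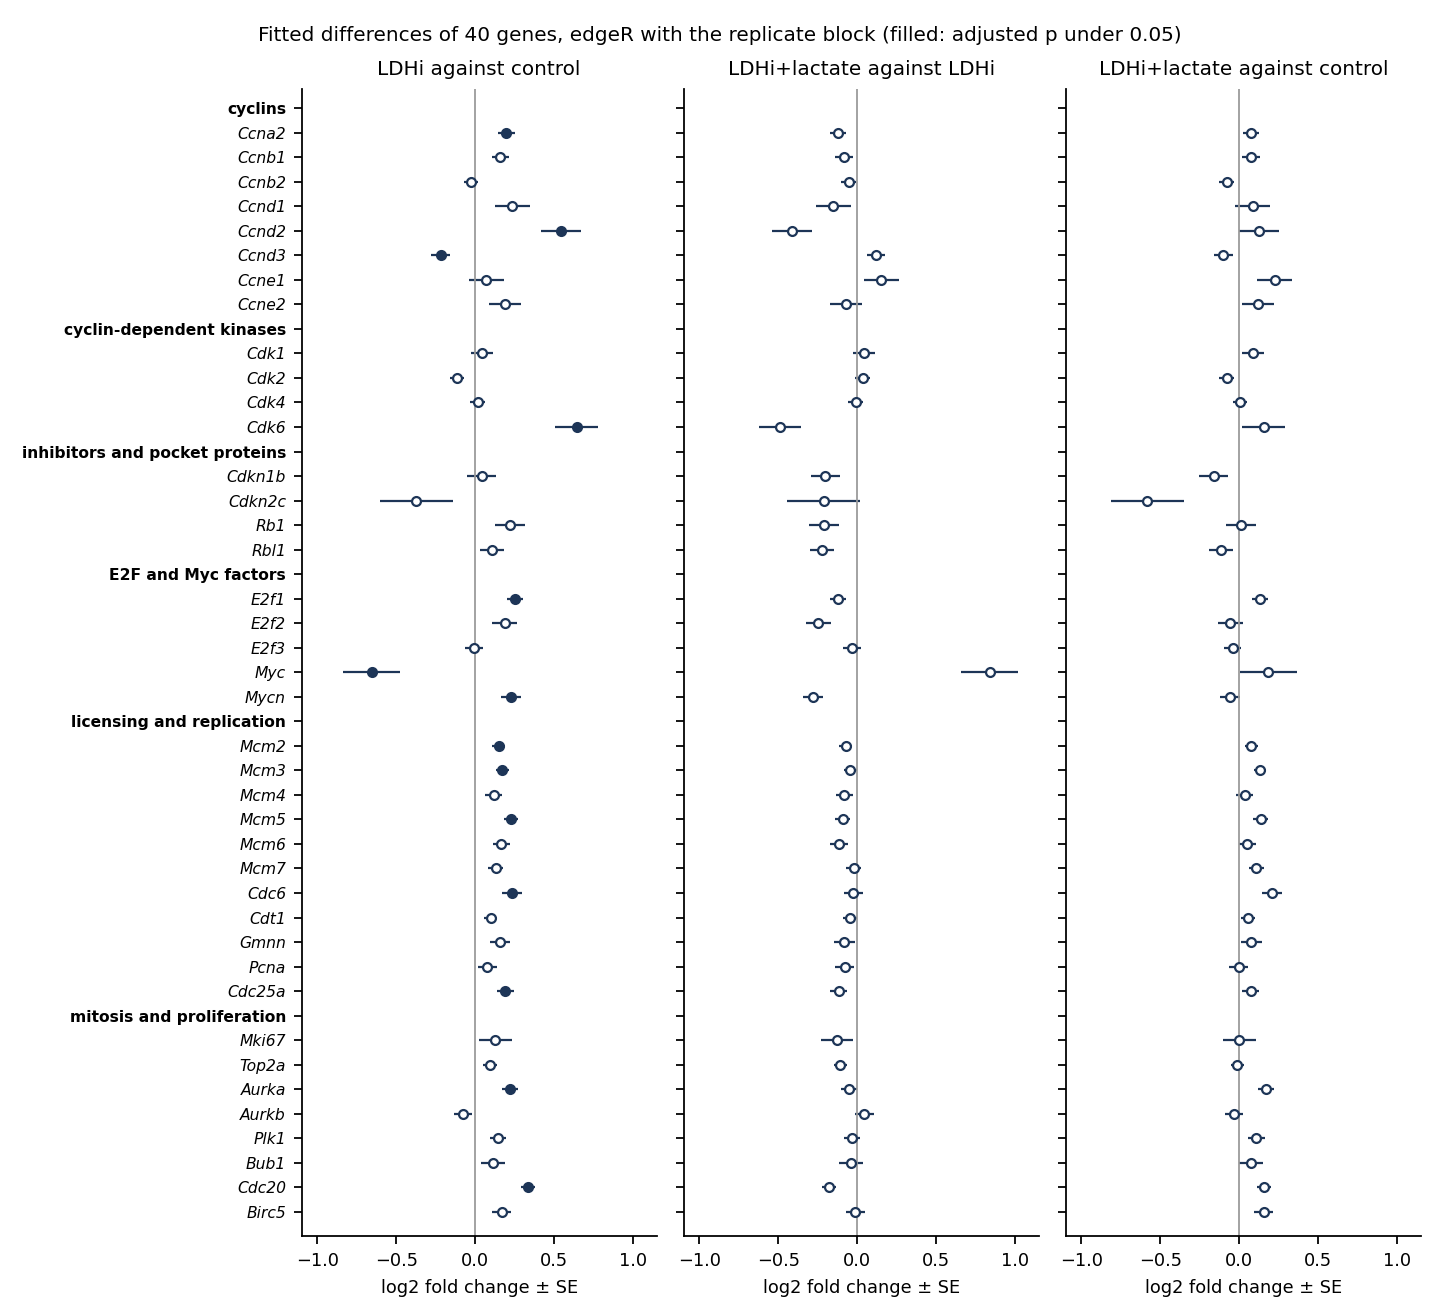
log2 fold change with its standard error for the 40 genes by role, from edgeR with the replicate block, in panels for LDHi over control, LDHi+lactate over LDHi and LDHi+lactate over control (filled points have an adjusted p under 0.05). In LDHi against control 14 points are filled, with Cdk6 (0.64) the highest and Myc (-0.66) the lowest, and in the other panels none is filled.

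Among the cyclins, Ccnd2 and Ccna2 were called higher and Ccnd3 lower with the block. Ccnd2, 1 of the D cyclins that open G1, stood at 926, 699, 616 and 681 CPM in LDHi replicates 1 to 4, against 527, 455, 368 and 688 CPM in control. Replicates 1 to 3 were higher in LDHi and replicate 4 slightly lower, with the groups overlapping. It was fitted at a log2 fold change of 0.54 ± 0.13 (SE) and the edgeR adjusted p 0.0139 with the block, and 0.214 without it. Ccnd3, the D cyclin that differed in the other direction, stood at 154, 157, 183 and 154 CPM in LDHi, against 199, 191, 195 and 167 CPM in control. It was lower in all 4 pairs, by 0.22 ± 0.06 in log2 with the block (adjusted p 0.0248) and not called without it (0.299). It is not stated whether the counting used strand, so its reads and those of Bysl, whose exons overlap it on the other strand (39805 counts beside 73848), cannot be told apart. The same holds for exons that Ccna2 shares with Exosc9, Cdc20 with Elovl1, Ccnd1 with LTO1, Ccne2 with Ints8, Cdk2 with Pmel, Cdk4 with Tspan31 and Mcm7 with Cops6 and Ap4m1, while the antisense genes at Ccnd2 and Cdk6 held 77 counts or fewer. Ccna2, the S phase and mitosis cyclin, stood at 267, 279, 391 and 383 CPM in LDHi, against 230.1, 257, 340.2 and 319 CPM in control, higher in all 4 pairs with a log2 fold change of 0.20 ± 0.05 (adjusted p 0.0222 with the block, 0.679 without). The first set was lower than the second in both groups, and the groups overlapped. The other 5 cyclins were not called. Ccnd1 had a log2 fold change of 0.24 ± 0.11 and Ccne2 of 0.19 ± 0.10, Ccnb1 of 0.16 ± 0.06, Ccne1 of 0.07 ± 0.11 and Ccnb2 of -0.02 ± 0.05. Ccnb2, the highest cyclin per length, stood at 113, 124, 124 and 114 CPM in LDHi, against 119, 134, 125 and 107 CPM in control. Ccnd1 stood at 325, 301, 187 and 173 CPM in LDHi, against 243, 259, 129 and 202 CPM in control, higher in 3 of the 4 pairs. Neither gene separated the groups.

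D cyclins are partners of the same kinases, so their shares are given per length. Ccnd2 took 53.2, 47.6, 51.9 and 57.2% of the summed D cyclin CPM per kb in LDHi libraries, against 43.0, 38.7, 44.1 and 54.2% in control libraries. Ccnd3 took 9.503, 11.5, 16.6 and 13.8% in LDHi, against 17.4, 17.4, 25.1 and 14.1% in control. Replicate 4 moved least in both, and the ranges of the groups overlapped for both genes. The summed D cyclins averaged 148 ± 28.2 CPM per kb in LDHi and 120 ± 21.1 in control (SD, n = 4 each).

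**Figure D3:**
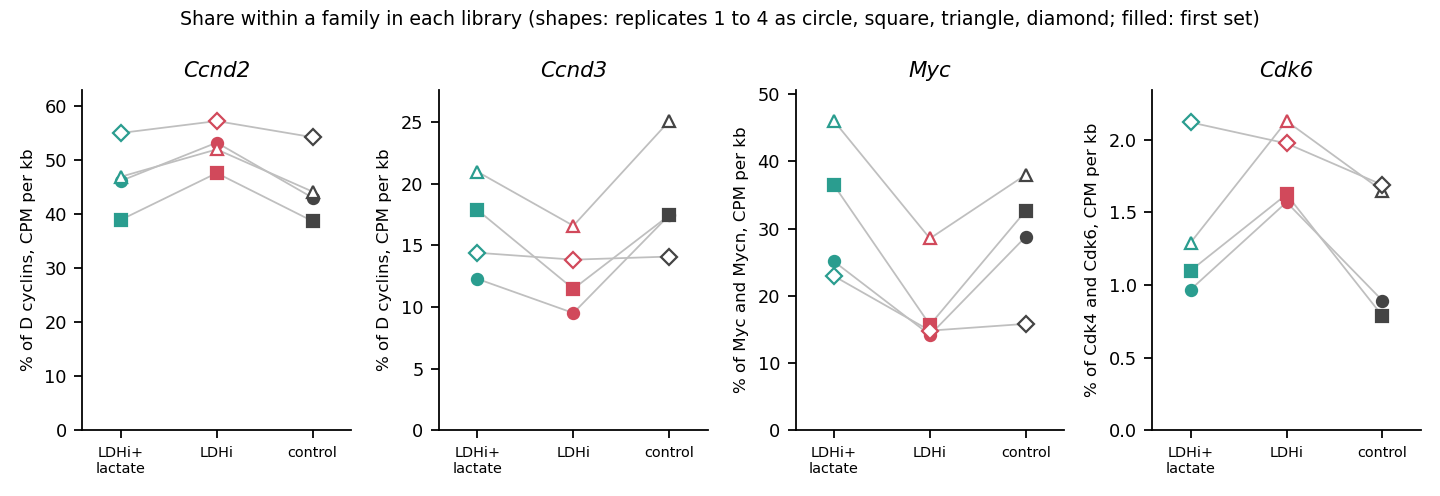
Share of Ccnd2 and Ccnd3 among the D cyclins, of Myc in Myc and Mycn, and of Cdk6 in Cdk4 and Cdk6, in percent of the family's CPM per kb, for each library of LDHi+lactate, LDHi and control (lines join equal replicate numbers). The Ccnd2 share is 47.6 to 57.2% in LDHi libraries against 38.7 to 54.2% in control, and the Myc share is 14.2 to 28.5% against 15.8 to 38.0%.

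Of the 4 kinases, Cdk6 was called and the others were not. Cdk6, a partner of the D cyclins, stood at 64.3, 68.2, 84.2 and 70.1 CPM in LDHi, against 36.2, 34.3, 62.9 and 56.5 CPM in control. It was higher in all 4 pairs and the groups did not overlap, with an exact two-sided permutation p of 0.0286, the smallest that 4 against 4 libraries allow. With the block the log2 fold change was 0.64 ± 0.14 (edgeR adjusted p 0.00875, and 0.191 without it). The pairs of the first set differed by 0.83 and 0.99 in log2 CPM and those of the second set by 0.42 and 0.31. The test of a difference between the sets did not pass (edgeR adjusted p 0.89 for the interaction). Cdk4, the highest gene of the set, stood at 936, 959.7, 899 and 808 CPM in LDHi, against 934, 1004, 872 and 763 CPM in control, with a log2 fold change of 0.01 ± 0.05. Per length Cdk6 was 1.57 to 2.13% of Cdk4 and Cdk6 in LDHi and 0.787 to 1.69% in control. Cdk2, the kinase of cyclins E and A, was lower in all 4 pairs by a log2 of 0.11 ± 0.05 that did not pass (adjusted p 0.116 with the block). Cdk1, the mitotic kinase, averaged 171 ± 17.3 CPM in LDHi and 167 ± 27.8 CPM in control.

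None of the inhibitors and pocket proteins was called. Cdkn1b, the p27 inhibitor of Cdk2 complexes and the highest of them per length, stood at 142, 126, 90.0 and 125 CPM in LDHi, against 119, 102, 98.1 and 150.0 CPM in control. Cdkn2c, the p18 inhibitor of Cdk4 and Cdk6, stood at 13.8, 10.3, 4.33 and 13.6 CPM in LDHi, against 13.6, 9.84, 10.9 and 17.1 CPM in control. Replicate 3 was the lowest LDHi library in both, and the groups overlapped. The log2 fold change of Cdkn2c was -0.37 ± 0.23 (adjusted p 0.298 with the block). Rb1, whose exons overlap Rcbtb2 and Lpar6, stood at 48.5, 32.5, 44.2 and 66.0 CPM in LDHi, against 36.4, 27.9, 39.2 and 62.8 CPM in control. It was higher in all 4 pairs by less than the spread between replicates, with 0.22 ± 0.09 (0.129), and Rbl1, the p107 relative of Rb, had 0.10 ± 0.08 (0.378).

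Of the E2F and Myc factors, E2f1 and Mycn were called higher with the block and Myc lower. E2f1, an activator of S phase genes, stood at 85.2, 89.4, 65.6 and 66.2 CPM in LDHi, against 71.4, 76.4, 52.4 and 57.5 CPM in control. All 4 pairs were higher by 0.20 to 0.32 in log2 CPM, although the groups overlapped because the first set was above the second in both. With the block the fitted log2 fold change was 0.25 ± 0.05 (adjusted p 0.00634), and with the set as a term in its place E2f1 was also called (adjusted p 0.0192), as was Cdk6 (0.0176). The adjusted p of E2f1 with the block ran from 0.0233 to 0.0524 as each number was left out. E2f2 had 0.19 ± 0.08 (adjusted p 0.123 with the block) and E2f3 had -0.01 ± 0.06 (0.941).

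Myc and Mycn, related transcription factors, had fitted differences in opposite directions. Myc stood at 30.1, 42.6, 75.0 and 27.3 CPM in LDHi, against 69.5, 89.0, 92.9 and 26.0 CPM in control. Replicates 1 to 3 were lower in LDHi and replicate 4 was not, and control replicate 4 was the lowest library of all. The log2 fold change was -0.66 ± 0.18 with the block (edgeR adjusted p 0.0296) and -0.67 ± 0.43 without it (0.514). With the block, the edgeR adjusted p of Myc was 0.136, 0.131, 0.0647 and 0.0112 without replicate 1, 2, 3 and 4. Myc was thus called in 1 of these 4 fits, the one without replicate 4. Mycn, the family member with the higher level, stood at 221, 278, 228 and 190.2 CPM in LDHi, against 208, 222, 184 and 168 CPM in control. It was higher in all 4 pairs, with 0.23 ± 0.06 and an edgeR adjusted p of 0.0299 with the block and 0.409 without it. As each number was left out with the block, the edgeR adjusted p of Mycn ran from 0.0580 to 0.120. Per length the sum of both genes averaged 85.7 ± 15.3 CPM per kb in LDHi and 84.9 ± 17.1 CPM per kb in control (SD, n = 4 each), while Myc made up 14.2, 15.7, 28.5 and 14.8% of it in LDHi, against 28.8, 32.7, 38.0 and 15.8% in control.

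All 11 licensing and replication genes had a fitted log2 fold change above 0 in LDHi against control, with a median of 0.16 with the block, and 5 were called higher with it (45.5%, against 9.85% of all genes tested). Mcm5 stood at 529, 641, 567 and 502 CPM in LDHi, against 461, 580.5, 461 and 417 CPM in control, higher in all 4 pairs. The log2 fold change was 0.23 ± 0.05 (adjusted p 0.00737 with the block, 0.407 without). Mcm3 stood at 477, 540.4, 567 and 475 CPM in LDHi, against 438, 495, 478 and 415 CPM in control, with 0.17 ± 0.04 (0.0127 with the block, 0.389 without). The pair differences of both were smaller than the range of the 4 LDHi libraries. Mcm2 stood at 509, 554, 564 and 497 CPM in LDHi, against 487, 501, 503 and 427 CPM in control, with 0.15 ± 0.04 (0.0314 with the block, 0.397 without). Mcm6, Mcm4 and Mcm7, the other helicase subunits, were higher in all 4 pairs and not called, with 0.17 ± 0.06 (adjusted p 0.0579 with the block), 0.12 ± 0.05 (0.152) and 0.13 ± 0.05 (0.0816).

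Cdc6, which loads the helicase, stood at 79.9, 90.0, 70.8 and 69.6 CPM in LDHi, against 68.6, 83.2, 57.5 and 56.1 CPM in control. Its log2 fold change was 0.23 ± 0.06 (edgeR adjusted p 0.0245 with the block, 0.469 without). Cdc25a, the phosphatase that activates Cdk2, stood at 153, 168, 173 and 146 CPM in LDHi, against 135, 159, 146 and 122 CPM in control, with 0.19 ± 0.05 (0.0330 with the block, 0.419 without). Both were higher in every pair, and control replicate 4 was the lowest library of each. Control replicate 4 was also the lowest of all 12 libraries for Mcm2 to Mcm7, Pcna, Gmnn and Cdt1, and it held the highest neuron marker sum. Without replicate 4, the adjusted p with the block was 0.0683 for Mcm5, 0.110 for Mcm3, 0.235 for Mcm2, 0.155 for Cdc6 and 0.193 for Cdc25a. Without replicate 1 it was 0.0525 to 0.111 for Mcm3, Mcm2, Cdc6 and Cdc25a, and 0.0372 for Mcm5. Without replicate 3 it was 0.0573 to 0.0972 for the same genes, and 0.0332 for Mcm5. Without replicate 2, Mcm2 was not called (0.0911) and the others were. Cdt1, the licensing factor, had 0.10 ± 0.04 (0.146), its inhibitor Gmnn (geminin) 0.16 ± 0.06 (0.117) and the sliding clamp Pcna 0.08 ± 0.06 (0.426). Pcna is uncertain because the pseudogene Pcna-ps2 held 23948 counts over the 12 libraries beside 70412 for Pcna.

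Of the genes of mitosis and proliferation, Cdc20 and Aurka were called. Cdc20 had the smallest adjusted p of the 40. It stood at 267, 313, 328 and 284 CPM in LDHi, against 214, 244, 271 and 216 CPM in control, higher in all 4 pairs by 0.27 to 0.40 in log2 CPM. The groups overlapped only through control replicate 3 and LDHi replicate 1. The log2 fold change was 0.34 ± 0.04 with the block (adjusted p 0.000815) and 0.33 ± 0.10 without it (0.112), and the exact two-sided permutation p of the unpaired libraries was 0.0571. As each number was left out with the block, its adjusted p ran from 0.00523 to 0.0124. Aurka, a spindle kinase, stood at 101, 114, 141 and 118 CPM in LDHi, against 93.3 to 110.2 CPM in the 4 control libraries, with 0.22 ± 0.05 (0.0135 with the block, 0.304 without). It was higher in all 4 pairs, with LDHi replicate 3 the highest. Top2a, the topoisomerase of replicated DNA, had 0.09 ± 0.04 (0.146 with the block) and Mki67, which encodes the proliferation marker Ki-67, had 0.13 ± 0.10 (0.434). Plk1 had 0.14 ± 0.05 (0.0725) and Birc5, which encodes survivin, 0.17 ± 0.06 (0.0747). The checkpoint kinase Bub1 had 0.11 ± 0.08 (0.350) and Aurkb, the kinase of the same complex as survivin, -0.08 ± 0.06 (0.395). Mki67 averaged 520 ± 93.5 CPM in LDHi and 487 ± 142 CPM in control (SD, n = 4 each), a difference smaller than the spread between replicates.

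**Figure D4:**
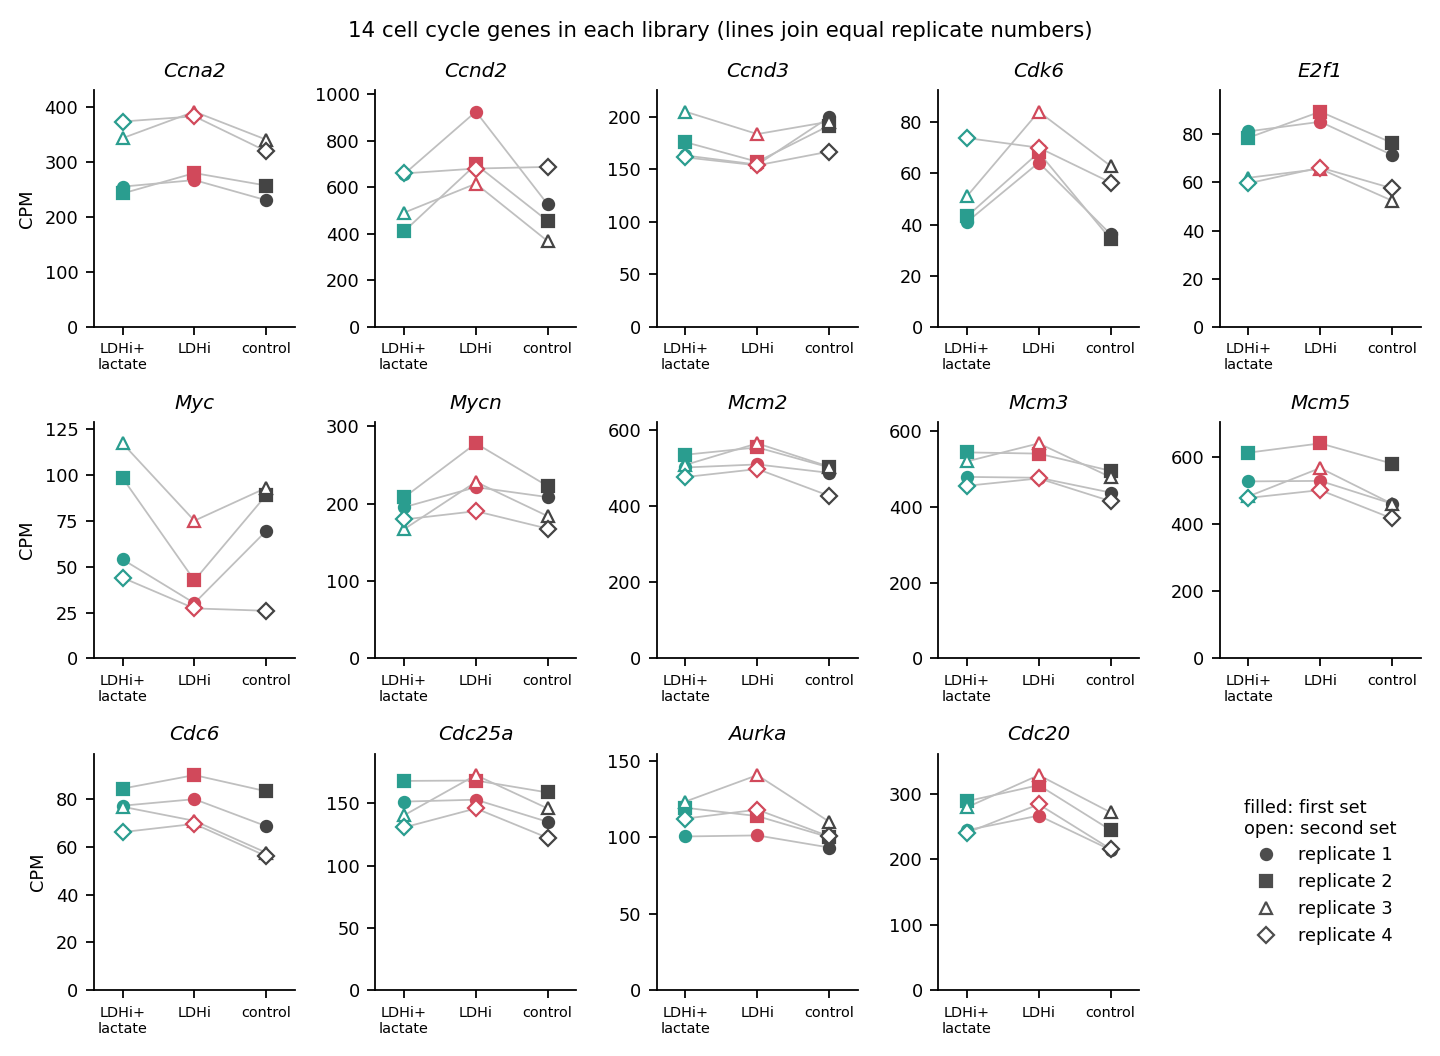
CPM in each library of LDHi+lactate, LDHi and control for the 14 genes called with the replicate block in LDHi against control (shapes mark replicates, filled shapes the first set, lines join equal numbers). Of the 12 higher genes 11 are higher in LDHi than in control in all 4 pairs and Ccnd2 in 3, while Ccnd3 is lower in 4 pairs and Myc in 3.

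The second comparison asks whether lactate given with the inhibitor changed these genes. None of the 40 was called in LDHi+lactate against LDHi by edgeR, without the block (0% of all genes tested were called) or with it (0.57% called higher and 0.0677% lower). With the block, 11 of the 40 had an unadjusted p under 0.05, and 1 did without it. DESeq2 with the block called Myc higher and Ccnd2, Cdc20, Cdk6 and Mycn lower, and DESeq2 without it called none. The unadjusted counts and the DESeq2 calls are given without their shares over all genes tested, so they are a description. The median log2 fold change was -0.08 with the block, against -0.01 over all genes tested, and 6 of the 40 were above 0. In all 4 same-numbered pairs, 14 genes were lower in LDHi+lactate (35.0%, against 10.2% of all genes tested) and Myc and Ccnd3 were higher (5.0%, against 11.6%). The LDHi libraries are those of the first comparison, so the values below are set side by side and not counted as a second observation.

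Myc stood at 53.9, 98.3, 117 and 44.0 CPM in LDHi+lactate, against 30.1, 42.6, 75.0 and 27.3 CPM in LDHi. It was higher in all 4 pairs with overlapping groups, a log2 fold change of 0.84 ± 0.18 with the block and an edgeR adjusted p of 0.0845. Mycn stood at 195, 208, 167 and 179 CPM in LDHi+lactate, against 221, 278, 228 and 190.2 CPM in LDHi, lower in all 4 pairs by a log2 of 0.28 ± 0.06 (adjusted p 0.0937 with the block). Myc made up 25.1, 36.4, 46.0 and 22.9% of Myc and Mycn per length in LDHi+lactate, against 14.2, 15.7, 28.5 and 14.8% in LDHi. The shares were higher in every pair with lactate and overlapped between the groups.

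Ccnd2 stood at 657, 410.4, 491 and 659.9 CPM in LDHi+lactate, against 926, 699, 616 and 681 CPM in LDHi, with a log2 fold change of -0.42 ± 0.13 and an adjusted p of 0.222 with the block. Cdk6 stood at 41.01, 43.2, 51.1 and 73.9 CPM in LDHi+lactate, against 64.3, 68.2, 84.2 and 70.1 CPM in LDHi, with -0.49 ± 0.14 and an adjusted p of 0.183. Replicates 1 to 3 of Cdk6 were lower with lactate and replicate 4 was not. Cdc20 stood at 244, 288, 279 and 240.3 CPM in LDHi+lactate, against 267, 313, 328 and 284 CPM in LDHi, lower in all 4 pairs with -0.18 ± 0.04 and an adjusted p of 0.124. E2f1 had -0.12 ± 0.05 (0.381) and E2f2 -0.25 ± 0.08 (0.243), and both were lower in all 4 pairs.

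The 11 licensing genes had log2 fold changes of -0.12 to -0.02 with the block and adjusted p values of 0.452 or more. Mcm5 averaged 525 ± 62.5 CPM in LDHi+lactate and 559.7 ± 60.4 CPM in LDHi (SD, n = 4 each). Ccnd3 stood at 163, 176, 205 and 161 CPM in LDHi+lactate, against 154, 157, 183 and 154 CPM in LDHi, with 0.12 ± 0.06 and an adjusted p of 0.485. The mean of Mki67 was 488 ± 146 CPM in LDHi+lactate and 520 ± 93.5 CPM in LDHi.

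Against control, the same 4 libraries as in the first comparison, none of the 40 was called in LDHi+lactate by edgeR without the block (0% of all genes tested were called) or with it (4.18% called higher, 3.87% lower). An unadjusted p under 0.05 was seen in 9 genes with the block and in none without it. DESeq2 with the block called Cdc20, Cdc6 and Mcm3 higher. Both counts are given without their shares over all genes tested, so they are a description. The median log2 fold change with the block was 0.07, against -0.00075 over all genes tested. The smallest adjusted p was that of Cdc20, 0.0540 with 0.16 ± 0.04, at 244, 288, 279 and 240.3 CPM in LDHi+lactate against 214, 244, 271 and 216 CPM in control. Cdc6 followed with 0.21 ± 0.06 (0.0645), Aurka with 0.17 ± 0.05 (0.0673), Mcm3 with 0.13 ± 0.04 (0.0695) and Mcm5 with 0.13 ± 0.05 (0.0970). These 5 were among 13 genes higher in all 4 pairs (32.5%, against 18.6% of all genes tested), and Cdk2 and E2f2 were lower in all 4 (5.0%, against 17%). Myc had 0.18 ± 0.18 (0.555), Mycn -0.06 ± 0.06 (0.608), Ccnd2 0.13 ± 0.13 (0.564) and Cdk6 0.15 ± 0.14 (0.512), each with overlapping groups. The largest fitted difference was that of Cdkn2c, at 14.8, 5.72, 4.56 and 12.4 CPM in LDHi+lactate against 13.6, 9.84, 10.9 and 17.1 CPM in control, and it was not called (-0.58 ± 0.23, adjusted p 0.141 with the block).

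The sets of libraries also differed in some of the genes. In the second set against the first, with the treatment in the fit, 6 genes were called higher (15.0%, against 13.7% of all genes tested) and 6 lower (15.0%, against 14.3%), shares near the background. Each set holds 6 libraries but only 2 replicate numbers, and same-numbered libraries deviated together, so the p-values of this fit are too small. The control libraries alone, 2 against 2, gave no call. Ccna2 had the smallest adjusted p, 3.71e-05, with 319 to 391 CPM (median 358) in the second set, against 230.1 to 279 CPM (median 256) in the first. Mki67 had 503 to 667 CPM (median 607) in the second set, against 354 to 496 CPM (median 380) in the first, a log2 fold change of 0.59 ± 0.09 and an adjusted p of 0.00115. Neither gene overlapped between the sets. Top2a (0.41 ± 0.05), Cdk6 (0.52 ± 0.11), Rb1 (0.67 ± 0.19) and Bub1 (0.26 ± 0.09) were also higher. Ccnd1 stood at 129 to 202 CPM (median 178) in the second set, against 228 to 325 CPM (median 278) in the first, with -0.66 ± 0.11 and an adjusted p of 0.00111. E2f1 (-0.41 ± 0.04), Gmnn (-0.32 ± 0.10), Cdc6 (-0.29 ± 0.07), Mycn (-0.26 ± 0.07) and Cdk4 (-0.18 ± 0.06) were also lower. In the test of whether a treatment effect differed between the sets, 0 of 40 were called in any comparison by edgeR or DESeq2, with Cdk6 in LDHi against control the only unadjusted p under 0.05. With 2 libraries per group in a set this leaves room for differences. With each set fitted alone, Myc in LDHi against control had a log2 fold change of -1.12 in the first and -0.24 in the second. Neither was called without the block. The sets differ in depth and in the labelled cell type, which cannot be told apart.

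**Figure D5:**
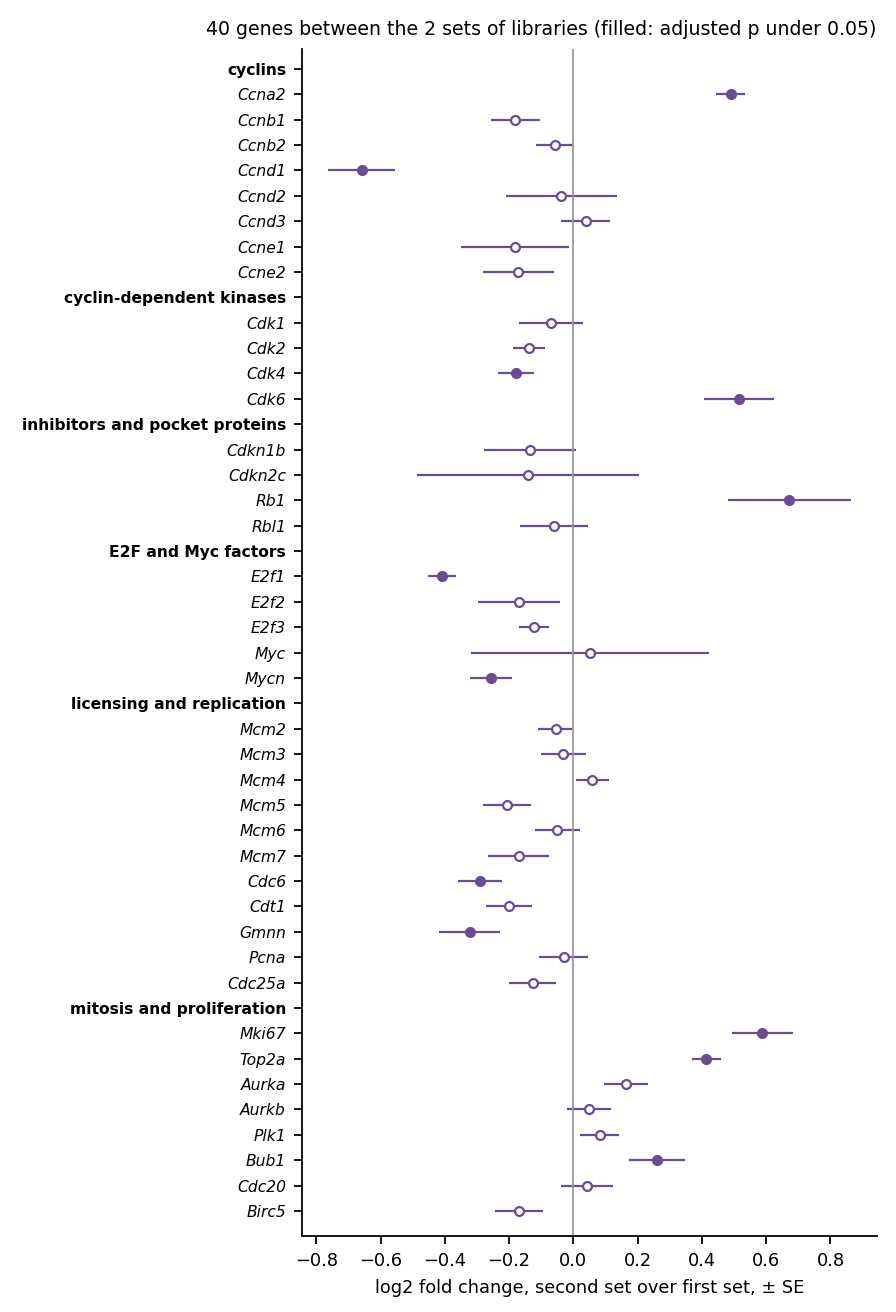
log2 fold change with its standard error of the second set (replicates 3 and 4) over the first set (replicates 1 and 2) for the 40 genes, with the treatment in the fit (filled points have an adjusted p under 0.05). The 12 filled points run from -0.66 in Ccnd1 to 0.67 in Rb1.

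Other genes of the cycle, from further lists, are given by count. In LDHi against control none of the 121 tested was called without the block. Of 41 other origin and fork genes, 13 were called higher with the block (31.7%, against 9.85% of all genes tested) and 1, the polymerase subunit gene Pold2, lower (2.44%, against 10.1%), with a median log2 fold change of 0.11. The highest by adjusted p were Orc1, an origin recognition subunit (0.43 ± 0.07), Pole, the leading strand polymerase (0.35 ± 0.07), Uhrf1, which copies DNA methylation (0.22 ± 0.04), and Mcm10 (0.26 ± 0.06). Of 36 other mitotic genes, 14 were higher (38.9%) and 1, the checkpoint gene Bub3, was lower (2.78%), with a median of 0.17. They included the separase gene Espl1 (0.29 ± 0.05), Kif23 (0.27 ± 0.05), Prc1 (0.22 ± 0.04) and Kif20a (0.25 ± 0.05). Of 8 genes of deoxynucleotide supply, Dut (0.27 ± 0.06) was called higher (12.5%, a share near the background).

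Of 36 other regulators tested, 6 were higher with the block (16.7%) and 1 lower (2.78%), with a median of 0.11, and the leading ones included both inhibitors and an activator. Cdkn1a, the p21 inhibitor of cyclin-dependent kinases, stood at 177, 156, 262 and 162 CPM in LDHi, against 82.7, 89.4, 116 and 132 CPM in control, with 0.84 ± 0.12 and an edgeR adjusted p of 0.00109 with the block and 0.0502 without it. All its LDHi libraries lay above the control ones. Mybl2, an activator of mitotic genes, stood at 142, 206, 262 and 194 CPM in LDHi, against 98.3, 148, 122 and 116 CPM in control, with 0.72 ± 0.11 (0.00198 with the block, 0.0851 without). Cdkn2a, whose products p16 and p19 restrain the cycle, stood at 6.05, 10.6, 8.01 and 6.37 CPM in LDHi, against 3.54, 6.55, 2.88 and 1.59 CPM in control, with 1.20 ± 0.22 (0.00469 with the block, 0.196 without). Tfdp2, a partner of E2F factors, was lower by 0.27 ± 0.05 (0.00349 with the block). In LDHi+lactate against LDHi none of the 121 was called by edgeR with or without the block. In LDHi+lactate against control, Cdkn1a (0.66 ± 0.12), Cdkn2a (0.98 ± 0.22), Mybl2 (0.51 ± 0.11), Anln (0.36 ± 0.07), Kif20a (0.23 ± 0.05), Ccnf (0.25 ± 0.06), Espl1 (0.20 ± 0.05) and Incenp (0.19 ± 0.05) were called higher with the block, and Pold2 (-0.20 ± 0.04) and Tfdp2 (-0.21 ± 0.05) lower. Over all genes tested, 4.18% were called higher and 3.87% lower in that fit.

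The 40 genes together took 0.897 to 0.925% of all counts in LDHi+lactate libraries, 0.940 to 0.980% in LDHi and 0.855 to 0.924% in control. All 4 LDHi libraries lay above all 8 others. As a description, the mean share was 0.962 ± 0.0198% in LDHi and 0.885 ± 0.0300% in control (SD, n = 4 each). The licensing genes summed to 3505 ± 280.2 CPM in LDHi and 3146 ± 345 CPM in control, and the cyclins to 1780 ± 129 CPM in LDHi and 1493 ± 124 CPM in control.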

How the data were processed

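RNA was taken from whole organoids, made into mRNA libraries and read as 50 bp single reads. The authors deposited raw counts per Ensembl gene, 1 table per library, and the submitters' processing notes name cutadapt 1.13, STAR, HTSeq 0.6.1p1, DESeq2 1.14.1 and build mm10. Not given in the sources used here are the STAR version, the strand setting and the annotation release. Of 54232 IDs, 54165 matched GENCODE vM21.

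Counts were fitted with edgeR 4.0.16 in R 4.3.3 (TMM, filterByExpr with the group, all 12 libraries, quasi-likelihood test, Benjamini-Hochberg over 17721 genes), without a block as the main fit. Deviations from the group means correlated at 0.329 to 0.634 between same-numbered libraries (12 pairs, each above 0.1) and at -0.22 to 0.197 between other numbers of the same set, so the pairing is read from the data. log2 CPM used a prior count of 2. Single genes were also tested by an exact two-sided permutation test (smallest p 0.0286). Alternatives were DESeq2 1.42.0, library totals, RLE size factors, a minimum of 10 counts per library, omission of the filter, a term for the set, the sets fitted apart and single libraries left out. The steps were tested on simulated data. Named genes are all 40, and from each other list the up to 4 called genes with the smallest adjusted p in LDHi against control. Bub3, Pold2, Anln, Ccnf and Incenp, from counts of 5 or fewer, were chosen after their values were seen. Members and lists were chosen with earlier results of these data known.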

Additional observations from a re-analysis of the deposited data

Results flagged for a closer look

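Among 120 groups of 4 libraries (40 genes in 3 conditions), 2 held a library far from the other 3, where chance gives about 1 in 20 groups. Ccnd3 stood at 183.4 CPM in LDHi replicate 3, against 153.6 to 157.0 CPM in the other LDHi libraries, so that library lay nearest to the control ones. Cdt1 stood at 219.8 CPM in LDHi replicate 2, against 173.8 to 180.5 CPM in the other LDHi libraries, and replicate 2 was also the highest Cdt1 library in LDHi+lactate and in control.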

How the results depend on the processing

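In LDHi against control, 0 genes were called under RLE size factors, library totals, other filters, DESeq2, the groups compared alone, either set alone and each library left out, all without a block. With the replicate block 12 were higher and 2 lower, as with DESeq2 and the block (12 and 2) and RLE with the block (12 and 2). Library totals with the block gave 10 higher and 2 lower, and the set as a term 2 higher. Over the fits that left out a library or a number, the higher genes ran from 0 to 12 and the lower ones from 0 to 2. The first set alone with the block gave 5 higher and 2 lower, and the second set alone 9 higher. In LDHi+lactate against LDHi, DESeq2 with the block gave 1 higher and 4 lower, and the first set alone with the block 1 and 3. In LDHi+lactate against control, DESeq2 with the block gave 3 higher, and the second set alone with the block 2 higher and 1 lower. The blocked fits with other scalings, sets or numbers left out were chosen after seeing the data. The counts from these alternative fits are given without their shares over all genes tested, so they are a description. Between the sets, the control libraries alone gave 0 higher and 0 lower, with fewer libraries, and leaving out 1 library gave 4 to 7 higher and 4 to 9 lower. No gene reversed where it was called. The cause of the other differences between fits was not tested. With 4 libraries a group, log2 differences of 0.15 to 0.66 passed with the block and did not pass in the unblocked main comparison. Which of these fits is right was not tested, and a gene that was not called may still differ by as much.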
